A study of Mus musculus with 12 samples.

Results

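Cilium and flagellum genes were taken here as the gene rows whose symbol opens with Dnah, Dnai, Dnali or Dnaaf, or with Ift, Bbs, Tekt or Rsph followed by a digit. The rule found 50 genes among 20981, and it used names only, no measured value. They are 11 axonemal dynein heavy chains, 3 dynein intermediate or light intermediate chains, 3 dynein assembly factors, 3 IFT-A and 11 IFT-B subunits, 8 BBSome subunits or their chaperonins, 5 tektins and 6 radial spoke proteins. They were read in 12 RNA-seq libraries from testes of C57BL/6 *Mael*-/- mice about 3 months old, 3 libraries in each of 4 groups. All 4 groups share the *Mael* mutation, so no comparison here is between genotypes. TOTAL is RNA of the clarified whole testis extract brought to 10 mM EDTA, which takes ribosomes apart. INPUT is RNA of fractions 5 to 8 of that extract after a sucrose gradient. IP is RNA pulled from INPUT with an antibody against ORF1p, the RNA-binding protein encoded by LINE-1 retrotransposons, and BO (Beads Only) is RNA that stuck to beads carrying no antibody. The labels number the libraries of a group and do not say whether they came from separate mice. The tables for genes give no value per library. Every gene value below is or rests on the authors' mean over the libraries of a group, and the authors' own comparison columns were not used, so values are given with no spread between libraries, no number of reads and no test.

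A cilium or flagellum is built around an axoneme of microtubule doublets. Outer and inner dynein arms, motors assembled from very large heavy chains and smaller intermediate and light chains, slide the doublets, and radial spokes carry signals from the central pair of microtubules to the arms. The arms are put together in the cytoplasm by assembly factors before they reach the axoneme, and tektins are filaments along the doublets. Intraflagellar transport (IFT) moves cargo along the doublets, with the IFT-B complex tied to movement towards the tip and IFT-A to movement back, and the BBSome is a coat-like adaptor that rides on IFT trains and carries membrane proteins. In the testis the main user of these parts is the sperm tail, for which many of the mRNAs are already made in spermatocytes.

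RFX transcription factors, among them RFX2 of spermatocytes, bind the X-box of many cilium promoters, so the promoters of these genes were read first. RefSeq promoters on GRCm38.p6, each running from 250 bases before to 50 bases after a gene's start, were found by symbol for 44 of the 50 genes, with 47 promoters in all. The X-box, GTTNCC and GGNAAC with NN between them, searched on both strands, was in 1 of the 47 (2.13%) beside 0.451% of all 32851 promoters of this length. A looser form, GTNNCC and GGNNAC with NN between them, which takes in every match of the first form, was in 7 of 47 (14.9%) beside 1.88%, namely those of *Bbs1*, *Bbs4*, *Bbs7*, *Ift22*, *Ift57*, *Rsph9* and *Tekt4*. The cAMP response element TGACGTCA was in 2 of 47 (4.26%), *Dnah6* and *Ift57*, beside 1.79%. Of the 7 promoters with the looser X-box, 4 are shown because they span the range of the RNA data described below. *Bbs7* holds the only match to the full X-box at the NN spacing searched and was several fold higher in IP than in each other group. *Ift57* holds a looser X-box and a CRE and was over 2-fold lower in INPUT than in TOTAL. *Bbs1* was higher in INPUT than in TOTAL, and *Tekt4* had a TOTAL mean of only 14.5. These 4 were picked after their values were seen. They lie at chr3:36613340-36613639 on the minus strand (*Bbs7*), chr16:49699044-49699343 on the plus strand (*Ift57*), chr19:4906578-4906877 on the minus strand (*Bbs1*) and chr17:25471340-25471639 on the plus strand (*Tekt4*). They are written 5′ to 3′ on the strand of the gene, and capitals mark the first match to the looser X-box.
Bbs7: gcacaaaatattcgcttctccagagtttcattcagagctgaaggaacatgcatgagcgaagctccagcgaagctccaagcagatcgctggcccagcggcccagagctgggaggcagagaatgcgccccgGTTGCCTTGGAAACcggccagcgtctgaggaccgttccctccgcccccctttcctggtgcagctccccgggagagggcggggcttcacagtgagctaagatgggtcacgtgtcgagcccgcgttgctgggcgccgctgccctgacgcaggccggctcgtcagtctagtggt
Ift57: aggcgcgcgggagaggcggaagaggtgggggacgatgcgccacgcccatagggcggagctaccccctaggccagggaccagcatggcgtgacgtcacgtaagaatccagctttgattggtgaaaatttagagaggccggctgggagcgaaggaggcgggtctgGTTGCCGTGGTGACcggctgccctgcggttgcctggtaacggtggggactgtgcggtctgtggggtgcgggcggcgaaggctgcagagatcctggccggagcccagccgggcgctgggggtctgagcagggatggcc
Bbs1: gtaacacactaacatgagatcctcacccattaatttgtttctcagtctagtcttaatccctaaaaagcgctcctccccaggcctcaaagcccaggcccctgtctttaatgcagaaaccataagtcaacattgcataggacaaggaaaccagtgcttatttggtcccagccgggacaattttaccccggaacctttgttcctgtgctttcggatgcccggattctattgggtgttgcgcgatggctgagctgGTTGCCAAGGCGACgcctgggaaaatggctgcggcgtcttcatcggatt
Tekt4: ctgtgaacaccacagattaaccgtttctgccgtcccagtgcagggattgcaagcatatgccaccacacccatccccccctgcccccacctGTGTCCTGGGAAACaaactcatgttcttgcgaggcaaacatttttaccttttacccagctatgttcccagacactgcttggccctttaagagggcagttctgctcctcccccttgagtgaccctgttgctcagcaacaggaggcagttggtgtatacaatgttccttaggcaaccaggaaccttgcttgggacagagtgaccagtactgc
A match to these letters is a description of the promoter and not a bound site.

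The label testis and the state of the libraries were checked on marker lists and on *Mael* itself. The mean of *Mael* was 0.650 in TOTAL and 0.502 in BO, and it was listed at 0 in INPUT and IP. All 12 spermatocyte markers were detected in TOTAL, with a summed mean of 31390 and single genes between 13.2 and 9433. The 12 spermatid markers summed to 470, from 2.93 to 231 a gene, with *Prm1* at 21.99 and *Tnp1* at 30.1, so markers of the cells that build the sperm tail were low in TOTAL. Of 8 markers of the multiciliated cells of the efferent ducts 7 were found, with a summed TOTAL mean of 439. Of these, 4 were below 10, among them *Mcidas* at 0 and *Gmnc* at 2.23, while *Foxj1* stood at 21.7, *Ccno* at 53.1 and *Tppp3* at 357. Of 6 markers of epididymis 5 were below 10 and 2 at 0. In IP against TOTAL, 20.4% of the 14666 genes past the filter defined below were at least 2-fold higher and 26.2% lower. Of the spermatocyte markers, 11 of 11 past the filter were at least 2-fold higher (median log2 ratio 2.36). *Ccna1* did not pass, with 13.2 in TOTAL and 5.51 in IP. At least 2-fold lower were 7 of 9 Sertoli cell markers (median -1.71), 6 of 6 Leydig cell markers (median -2.57) and 6 of 7 spermatid markers (median -3.22). Those 6 spermatid markers had IP means from 0.714 to 7.00 and passed through TOTAL, so their direction was largely set by the filter. Of the spermatid markers that did not pass, only *Tssk6* was higher in IP (5.09 in TOTAL, 12.8 in IP). In the separate table of repeat RNA, rRNA made up 54.3% of BO replicate 3, and 3.27% and 3.44% of the other BO libraries. The BO means of genes could not be recomputed without that library, and the part of these marker and library differences in the values below was not tested.

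Means were set on the scale of the table of IP against TOTAL. The tables were normalized separately, and the INPUT and BO means were therefore rescaled by the IP means the tables share, by a median factor of 0.996 and 1.31 over 9689 genes. Per kilobase of the longest GENCODE M21 transcript, *Ift20*, a small IFT-B subunit also found at the Golgi, had the highest TOTAL level (871 normalized counts per kb), and *Ift43* of IFT-A (601), *Ift74* of IFT-B (575) and the BBSome subunit *Bbs9* (501) came next. Without a spread between libraries, whether neighbours in this order differ is unknown. The longest annotated transcript need not be the one expressed, so levels per kb are approximate. In IP the same measure put *Ift122* of IFT-A first (1701 per kb), then *Ift74* (1578), *Ift88* (1167) and *Ift52* (864), the last 3 of IFT-B, while *Ift20* was 13th and *Ift43* 25th. In such bulk samples fewer cells of a type and less RNA per cell cannot be told apart. *Rsph4a* and *Rsph6a* were below 10 in every group, from 0.312 to 3.95 and from 0 to 8.03, the 0 being in BO.

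**Figure D1:**
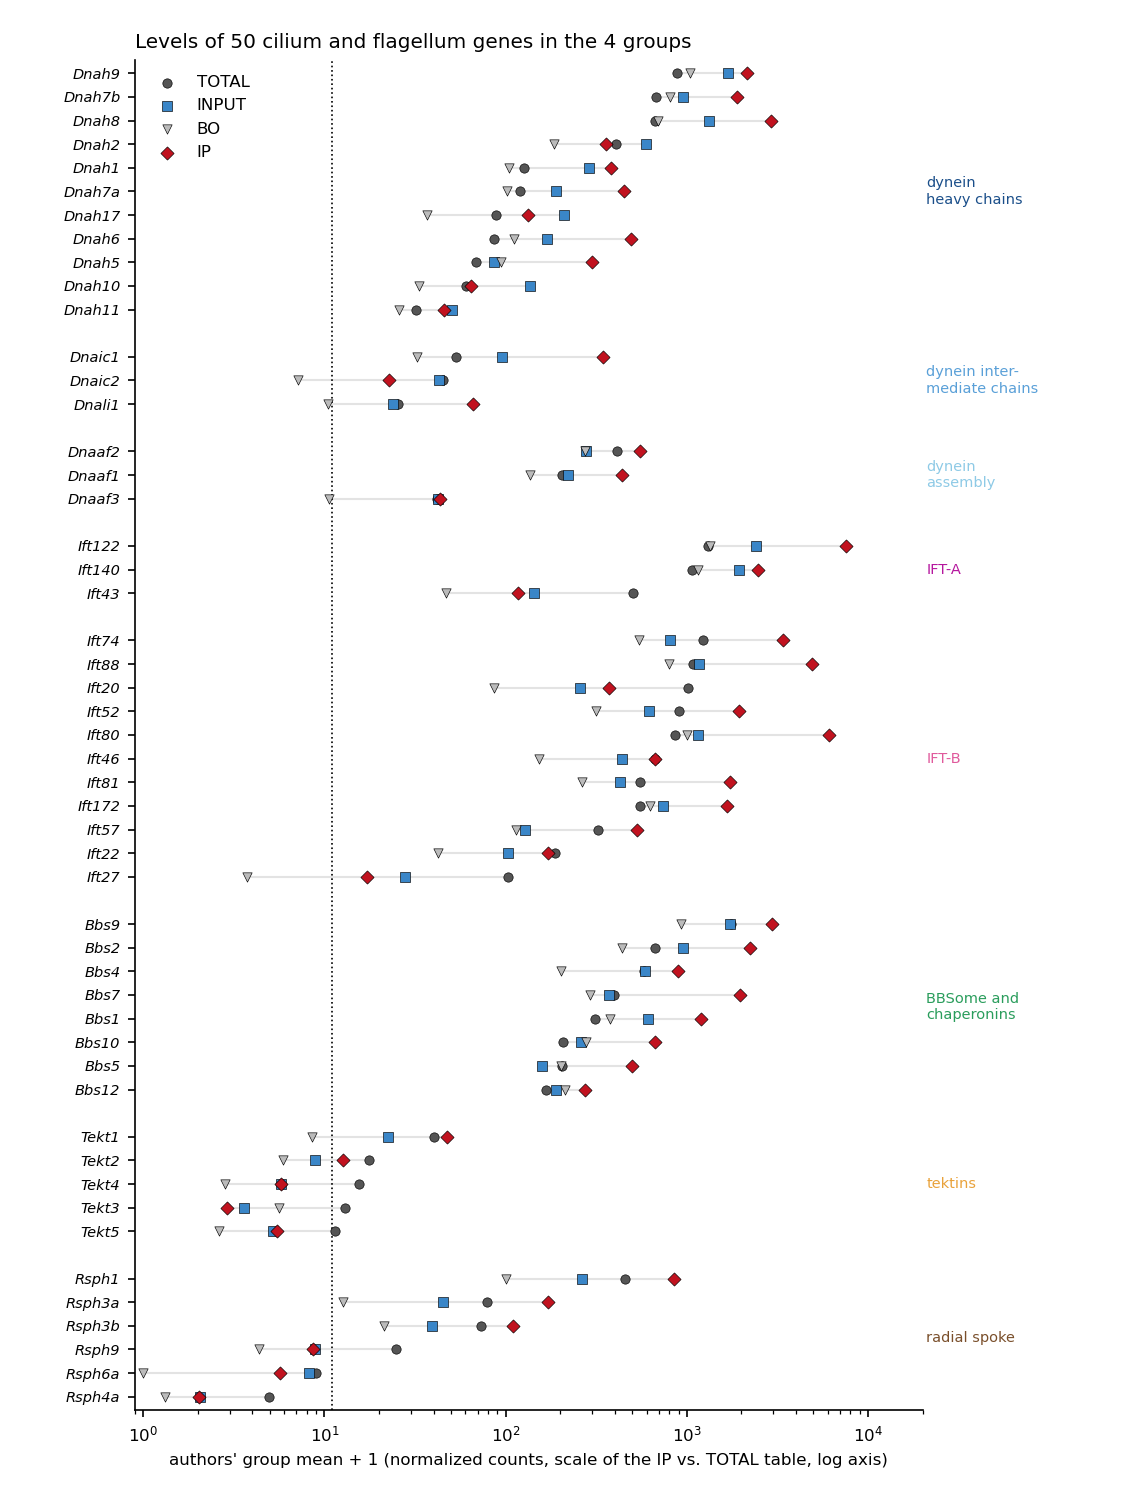
The authors' group mean plus 1 of each of the 50 genes (x axis, normalized counts on the scale of the table of IP against TOTAL, log axis) is drawn for TOTAL, INPUT, BO and IP, by gene group (rows) and in order of the TOTAL mean. The dotted line stands at a mean of 10, and grey lines join the lowest and highest group. Most IP points lie to the right of the row. Ift20, Ift43 and Ift27 have their highest level in TOTAL, as do Dnaic2, Ift22, Ift46, Tekt2, Tekt3, Tekt4, Tekt5, Rsph4a, Rsph6a and Rsph9.

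Log2 ratios were taken as log2((mean + 1)/(mean + 1)), for genes whose mean over the compared groups reached 10, and 2-fold was used as the limit for counting. Of the 50 genes, 42 passed this filter in IP against BO, 43 in IP against INPUT and 45 in IP against TOTAL, and 42 passed in all 3. The 8 that failed at least 1 were *Ift27*, *Rsph4a*, *Rsph6a*, *Rsph9*, *Tekt2*, *Tekt3*, *Tekt4* and *Tekt5*. A gene that is high in IP alone can pass the filter through IP. A gene that is high in the other group alone can likewise pass through that group. *Rsph9* did so against TOTAL, with 23.9 in TOTAL and 7.70 in IP. The direction of such a gene is largely set by the filter, and counts over the genes that passed describe them and not all 50.

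Against BO, the background of bare beads, IP was higher for all 42 genes on the deposited scale, but *Bbs12* (log2 ratio 0.36) stood at -0.45 after centring on the median gene and at -0.31 with equal upper quartiles, and *Dnah11* (0.81) at the median gene itself. At least 2-fold were 38 of 42 and none was lower, in a comparison where 43.9% of all 13634 genes tested were at least 2-fold higher and 11.2% lower. The median log2 ratio was 2.05 for the 42 and 0.81 for all genes, and after centring on that median 25 of 42 were at least 2-fold higher beside 18.3% of genes, with none lower beside 24.1%. Against INPUT, 22 of 43 genes were at least 2-fold higher and 1, *Dnah10*, was lower, beside 20.5% and 14.6% of 14400 genes, with medians of 1.09 and 0.15. With the gene means scaled to equal sums this split became 14 higher and 5 lower, beside 9.05% and 28.3% of genes. Against TOTAL, 24 of 45 genes were at least 2-fold higher and 4 were lower, beside 20.4% and 26.2% of 14666 genes, with medians of 1.11 and -0.03. Equal sums gave 15 higher and 5 lower, beside 9.73% and 38.1%. The 13 genes that fell short of 2-fold above BO after centring were *Bbs1*, *Bbs5*, *Bbs9*, *Bbs10*, *Dnaaf1*, *Dnaaf2*, *Dnah5*, *Dnah7b*, *Dnah9*, *Dnaic2*, *Ift43*, *Ift140* and *Ift172*, and those that did so with equal sums or equal upper quartiles were among them. With equal sums 8 genes fell short of 2-fold above INPUT (*Bbs2*, *Bbs10*, *Dnah7a*, *Dnah8*, *Dnali1*, *Ift172*, *Rsph3b* and *Tekt1*) and 9 above TOTAL (*Bbs5*, *Dnaaf1*, *Dnah7b*, *Dnah9*, *Dnali1*, *Ift52*, *Ift74*, *Ift140* and *Rsph3a*). The 3 comparisons share the IP libraries and are no independent evidence of each other.

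**Figure D2:**
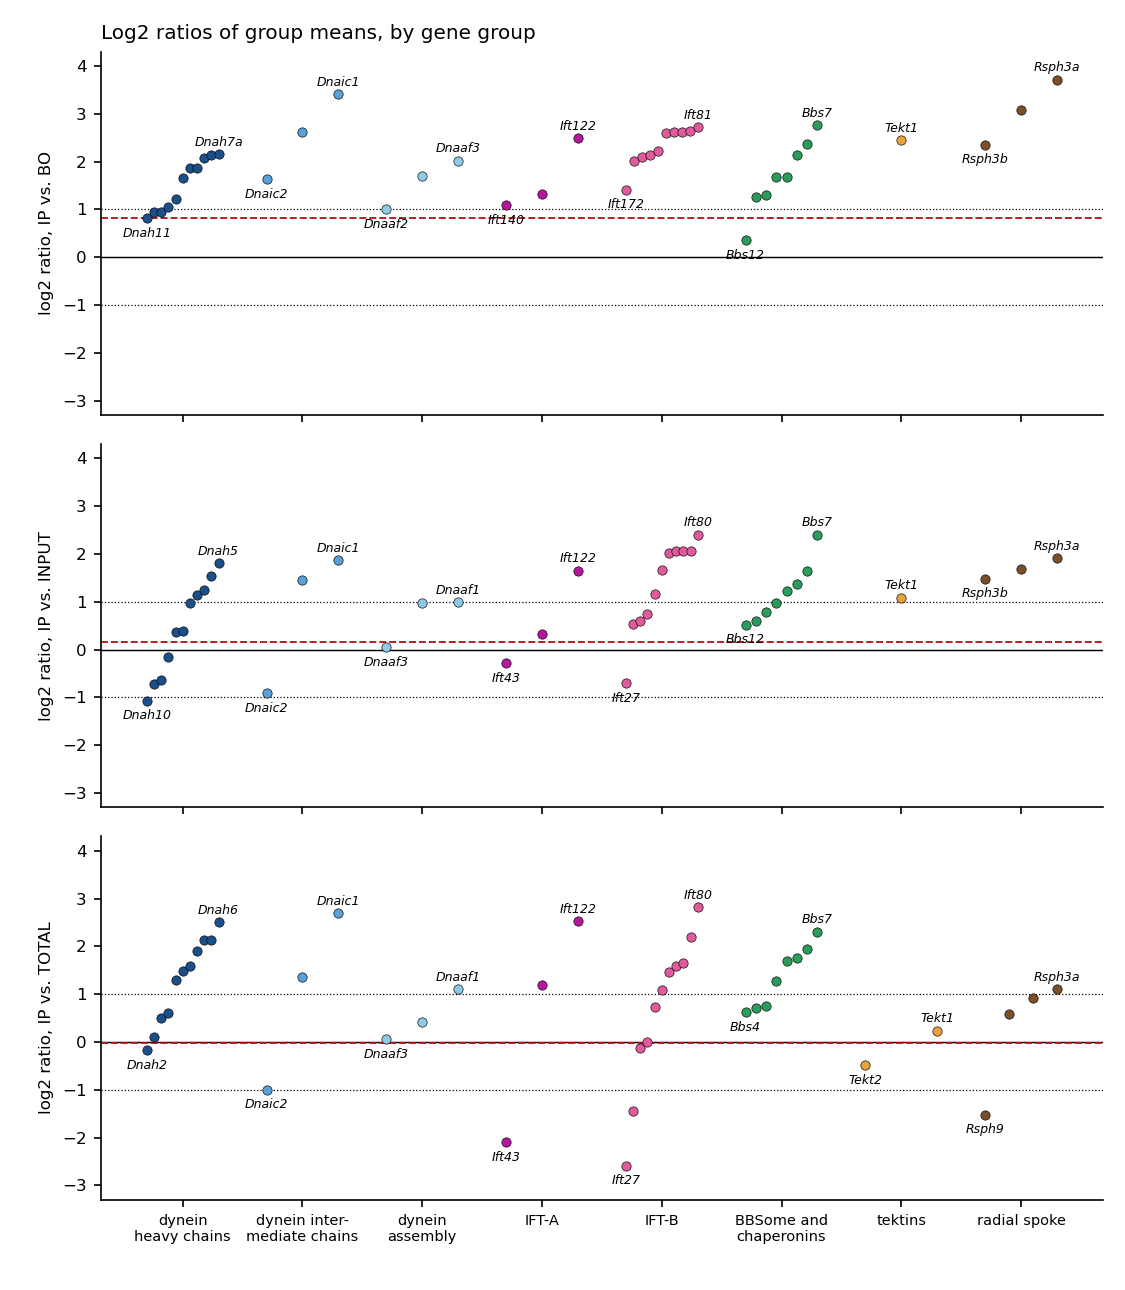
Log2 ratio of group means (y axis) of IP against BO, INPUT and TOTAL (panels from top to bottom) for each gene past the filter, by gene group (x axis), sorted within a group, with the lowest and highest of each group named. Dotted lines mark 2-fold, and the red dashed line marks the median of all genes tested in that comparison; every point of the top panel is above 0, though Bbs12 and Dnah11 do not exceed the red line, and the points furthest below the lower dotted line are Ift27 and Ift43 in IP against TOTAL.

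The genes at least 2-fold higher in IP than in each of BO, INPUT and TOTAL were 18 of 42, beside 11.0% of the 13566 genes that could be counted. Centring on the median gene left 13 (beside 6.49% of genes), equal upper quartiles 9 (beside 5.5%) and equal sums 8 (beside 4.87%), and *Bbs7*, *Dnah6*, *Dnaic1*, *Ift122*, *Ift80*, *Ift81* and *Ift88* were counted under each of these scalings. On the deposited scale they were 4 heavy chains (*Dnah5*, *Dnah6*, *Dnah7a*, *Dnah8*), both *Dnaic1* and *Dnali1*, *Ift122* of IFT-A, 6 subunits of IFT-B (*Ift52*, *Ift74*, *Ift80*, *Ift81*, *Ift88*, *Ift172*), 4 of the BBSome group (*Bbs2*, *Bbs5*, *Bbs7*, *Bbs10*) and *Rsph3a*. No assembly factor and no tektin was among them.

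The motors of the arms divided among themselves. Of the 11 heavy chains, the force-producing subunits, the IP mean was at least 2-fold above BO for 8, above TOTAL for 7 and above INPUT for 4, beside 43.9%, 20.4% and 20.5% of all genes. With equal sums the counts were 6, 5 and 2, beside 34.1%, 9.73% and 9.05%, and against BO 5 of 11 were left both after centring (beside 18.3%) and with equal upper quartiles (beside 22.2%). *Dnah8*, a sperm-type heavy chain of the outer arm, had a mean of 667 in TOTAL, 1318 in INPUT, 691 in BO and 2920.3 in IP. Its IP mean exceeded that of BO by 4.22-fold, of INPUT by 2.22-fold and of TOTAL by 4.37-fold. *Dnah5*, the outer arm heavy chain of motile cilia, stood at 68.0, 84.9, 93.9 and 300.2 in the same order, and at 3.51-fold its IP mean was the furthest above INPUT of the heavy chains. *Dnah6*, an inner arm heavy chain, stood at 85.3 in TOTAL, 167 in INPUT, 110.3 in BO and 488 in IP, which was 5.67-fold above TOTAL. On the deposited scale the IP mean of each of these 3 genes was over 2-fold above the other 3 groups, but some of these ratios fell short of 2-fold under another scaling. For *Dnah8* against INPUT the log2 ratio of 1.15 was 0.996 after centring, 0.739 with equal upper quartiles and 0.615 with equal sums, and for *Dnah5* against BO that of 1.67 was 0.855 after centring and 0.993 with equal upper quartiles.

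*Dnah9*, an outer arm heavy chain, was above TOTAL in INPUT as well as in IP. Its mean was 881 in TOTAL, 1677 in INPUT, 1042 in BO and 2151 in IP, so that IP was 2.06-fold above BO and 1.28-fold above INPUT, the latter turning to a log2 ratio of -0.18 with equal sums. *Dnah2* of the inner arm gave 406 in TOTAL, 592.5 in INPUT, 184 in BO and 359 in IP. It was the only heavy chain with a lower IP mean than TOTAL mean on the deposited scale (1.13-fold lower), whereas *Dnah10* and *Dnah11* were lower as well with equal sums, and its IP mean was 1.65-fold below INPUT. *Dnah10*, also of the inner arm, gave 59.5, 135, 32.2 and 63.5, and was 2.10-fold lower in IP than in INPUT, a log2 ratio of -1.07 that was -0.97 with a pseudocount of 10, short of 2-fold. *Dnah17*, the outer arm partner of *Dnah8* in sperm, gave 87.001, 208, 35.7 and 132, with IP again below INPUT (1.57-fold). *Dnah11*, lowest of the heavy chains against BO at 1.75-fold, gave 31.0, 49.4, 24.9 and 44.5. *Dnah7a* and *Dnah7b*, inner arm heavy chains, are near-identical copies between which reads could have been split, so their values are uncertain. *Dnah7a* was 4.43-fold higher in IP than in BO and *Dnah7b* 2.33-fold, and *Dnah1*, another inner arm heavy chain, was 3.64-fold higher.

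The ratio of counts of a pair of genes within a group needs no scaling between groups. The ratio of *Dnah8* to *Dnah2*, both with very long transcripts (16685 and 13704 nt), was 1.64 in TOTAL, 2.22 in INPUT, 3.75 in BO and 8.14 in IP. The ratio of *Dnah6* to *Dnah17* was 0.980, 0.803, 3.09 and 3.69 in the same order, so here BO stood nearer to IP than to INPUT. These pairs were chosen after their values were seen.

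Of the smaller dynein chains, *Dnaic1*, an intermediate chain of the outer arm, gave 52.2 in TOTAL, 94.0 in INPUT, 31.4 in BO and 344 in IP. IP was 10.6-fold above BO, 3.64-fold above INPUT and 6.49-fold above TOTAL. *Dnali1*, a light intermediate chain of inner arms, gave 24.5, 22.99, 9.45 and 64.9, and was 6.17-fold above BO. The BO mean of *Dnali1* was 7.23 in its own table, and a pseudocount of 10 moved this log2 ratio from 2.625 to 1.795. *Dnaic2*, the intermediate chain that pairs with *Dnaic1*, gave 44.3, 41.9, 6.12 and 21.7. Its IP mean was above BO by 3.10-fold but below INPUT by 1.89-fold and below TOTAL by 1.996-fold, whereas that of *Dnaic1* was above each of these groups. The BO mean of *Dnaic2* was 4.69 in its own table. With a pseudocount of 10 its log2 ratio to BO of 1.63 was 0.86, short of 2-fold. All 3 assembly factors were at least 2-fold above BO, beside 43.9% of all genes. The count was 2 of 3 with equal sums (beside 34.1%) or equal upper quartiles (beside 22.2%). After centring it was 1 of 3 (beside 18.3%). None of the 3 was 2-fold above INPUT, beside 20.5%. Counts of 3 genes say little beside such shares. *Dnaaf1* gave 204 in TOTAL, 220.1 in INPUT, 135 in BO and 440 in IP. *Dnaaf3* gave 41.1, 41.3, 9.57 and 42.7, so that TOTAL, INPUT and IP were alike within 1.04-fold on the deposited scale. With equal sums its log2 ratio of IP was -0.49 against INPUT and -0.46 against TOTAL. *Dnaaf2* was 2.02-fold above BO, but 38.7% of its exon bases in GENCODE M21 also lie in exons of other genes on its strand, with which its reads could be shared. Of the exon bases of *Dnaaf1* 20.7%, and of those of *Tekt2* 20.8%, overlap exons on the other strand, and the use of strand in the counting is not given in the sources used here.

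The IFT-A subunits differed among themselves. *Ift122*, a core subunit, gave 1313 in TOTAL, 2409 in INPUT, 1341 in BO and 7560.4 in IP, and was 5.63-fold above BO, 3.14-fold above INPUT and 5.75-fold above TOTAL. *Ift140*, of the same core, gave 1069 in TOTAL and 1951 in INPUT, a ratio close to that of *Ift122* between these groups, but 1156 in BO and 2458 in IP, 1.257-fold above INPUT (a log2 ratio of 0.33, and of -0.20 with equal sums). The ratio of *Ift122* to *Ift140* was 1.228 in TOTAL, 1.235 in INPUT and 1.16 in BO, and 3.08 in IP. *Ift43*, the small peripheral subunit, gave 503 in TOTAL, 143 in INPUT, 45.9 in BO and 117 in IP. It was 4.29-fold lower in IP than in TOTAL and 2.50-fold higher than in BO.

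IFT-B was the group with the largest share of the members' RNA. Of its 11 subunits, 10 passed the filter against BO and all 10 were at least 2-fold higher in IP beside 43.9% of all genes, with a median log2 ratio of 2.41. They were 10 of 10 with equal sums as well, beside 34.1%, and 9 of 10 after centring, beside 18.3%. *Ift27* did not pass against BO. Against INPUT 7 of 11 subunits were at least 2-fold higher, beside 20.5%, and 6 with equal sums, beside 9.05%. Against TOTAL 6 of 11 were at least 2-fold higher and 2 lower (median 1.095), beside 20.4% and 26.2%. With equal sums 4 were higher than in TOTAL, beside 9.73%. *Ift80* gave 857 in TOTAL, 1145 in INPUT, 1005 in BO and 6058 in IP, which was 7.06-fold above TOTAL and 5.28-fold above INPUT, the highest ratios among the genes past the filter, with *Bbs7* at the same log2 ratio against INPUT after rounding (2.40). *Ift88*, a subunit whose loss leaves cells without cilia, gave 1083, 1174, 801 and 4931. *Ift74* gave 1230 in TOTAL, 806 in INPUT, 542 in BO and 3375 in IP, and its tubulin-binding partner *Ift81* gave 552, 428, 263 and 1734. The pair had like ratios, with IP 6.23-fold and 6.59-fold above BO, 4.20-fold and 4.05-fold above INPUT and 2.74-fold and 3.14-fold above TOTAL. *Ift52*, which holds the core together, was 6.14-fold above BO and 2.14-fold above TOTAL, and *Ift172*, lowest of IFT-B against BO, was 2.66-fold above it. *Ift57* gave 322 in TOTAL, 127 in INPUT, 113 in BO and 531 in IP, and was thus 4.16-fold above INPUT but 1.65-fold above TOTAL.

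*Ift20* and *Ift27* of IFT-B had lower means in INPUT and IP than in TOTAL. *Ift20* gave 1017 in TOTAL, 258 in INPUT, 85.6 in BO and 371 in IP, which was 4.29-fold above BO and 2.74-fold below TOTAL. *Ift27*, a small GTPase at the edge of IFT-B, gave 102 in TOTAL, 26.8 in INPUT, 2.73 in BO and 16.2 in IP, and was 6.02-fold lower in IP than in TOTAL, the lowest ratio of the 45 genes. *Ift22*, another small GTPase, gave 187, 102, 41.4 and 171, and *Ift46* gave 667, 439.8, 151 and 666. Both were thus close to TOTAL in IP on the deposited scale. On the deposited scale *Ift20* and *Ift43* were at least 2-fold above BO and at least 2-fold below TOTAL at once, 2 of 42 beside 7.43% of 13593 genes, a pattern looked for after the values were seen. *Dnaic2* joined them with equal sums or a pseudocount of 0.1, and *Ift43* dropped out after centring or with equal upper quartiles. The ratio of *Ift122* to *Ift20* was 1.29 in TOTAL, 9.35 in INPUT, 15.7 in BO and 20.4 in IP.

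All 8 genes of the BBSome group had higher means in IP than in BO, INPUT and TOTAL on the deposited scale, with 7, 4 and 5 of them at least 2-fold higher beside 43.9%, 20.5% and 20.4% of all genes. With equal sums the counts were 6, 2 and 4, beside 34.1%, 9.05% and 9.73%, and against BO 3 of 8 were left after centring (beside 18.3%) and 5 of 8 with equal upper quartiles (beside 22.2%). Only *Bbs12* changed direction under another scaling (against BO as given above, and against INPUT to -0.01 with equal sums). *Bbs7*, whose promoter with the full X-box is printed above, gave 395 in TOTAL, 372 in INPUT, 289.9 in BO and 1962 in IP, and was 6.75-fold above BO, 5.28-fold above INPUT and 4.95-fold above TOTAL. *Bbs2*, which sits beside *Bbs7* in the BBSome, gave 667, 955, 435.5 and 2239. *Bbs9*, a scaffold subunit, gave 1749 in TOTAL, 1732 in INPUT, 927 in BO and 2966 in IP, 1.71-fold above INPUT. *Bbs4* gave 576, 589, 201 and 892, the lowest ratio of the group against TOTAL at 1.55-fold. *Bbs5* was the one gene of the short transcripts here, under 2000 nt, that was at least 2-fold higher in IP than in TOTAL (2.41-fold, a log2 ratio of 1.27, but 0.753 with equal sums), with 204, 158, 199.9 and 494. It was thus 1 of 8 such members, beside 8.3% of all 3059 genes of that length. *Bbs1*, whose promoter is also printed, was 3.85-fold above TOTAL. The chaperonin-like pair differed, *Bbs10* being 2.39-fold above BO and *Bbs12* 1.29-fold, the lowest ratio against BO of all 42 genes. The log2 ratio of *Bbs10* of 1.259 was 0.448 after centring, 0.587 with equal upper quartiles and 0.971 with equal sums, in each case short of 2-fold.

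Tektins had low means, and the radial spoke genes ranged from hardly detected to well detected. The TOTAL mean was 39.2 for *Tekt1*, 16.6 for *Tekt2*, 11.98 for *Tekt3*, 14.5 for *Tekt4* and 10.495 for *Tekt5*. In IP the means were 46.4, 11.6, 1.90, 4.76 and 4.45 in the same order, and only *Tekt1* passed the filter against BO. It was 5.43-fold higher in IP on a BO mean of 5.74 in its own table, a log2 ratio of 2.44 that was 1.54 with a pseudocount of 10. *Rsph1*, a spoke head protein, gave 452 in TOTAL, 263 in INPUT, 99.2 in BO and 853 in IP, and was 8.49-fold above BO and 1.88-fold above TOTAL. *Rsph3a*, a stalk protein, gave 78.4, 44.1, 11.7 and 169.8, and at 13.1-fold had the highest IP to BO ratio of all 42 genes, on a BO mean of 8.96 in its own table. With a pseudocount of 10 its log2 ratio of 3.72 was 2.88, below *Dnaic1* at 3.01 and *Rsph1* at 2.95. Its near-identical copy *Rsph3b* gave 72.1, 38.2, 20.3 and 109, and reads could have been split between the copies. *Rsph9*, of the spoke head, gave 23.9, 7.90, 3.36 and 7.70, and was 2.87-fold lower in IP than in TOTAL, a log2 ratio of -1.52 that was -0.94 with a pseudocount of 10, short of 2-fold.

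The step from extract to gradient fractions was read as the difference of the ratios of IP against each group. INPUT was at least 2-fold higher than TOTAL for 3 of 43 genes, *Dnah1*, *Dnah10* and *Dnah17*, and at least 2-fold lower for 4, *Ift20*, *Ift27*, *Ift43* and *Ift57*, beside 2.30% and 17.0% of 14280 genes. The medians were 0.11 for the 43 and -0.14 for all genes, and centring on the latter gave 9 higher and 4 lower, beside 4.68% and 13.7%. All 11 heavy chains were higher in INPUT than in TOTAL (median 0.93), against 5 of 14 IFT genes (median -0.58), and none of the 3 radial spoke genes past the filter was. *Ift20* was the lowest at -1.98 and *Dnah17* the highest at 1.25. All genes tested had an upper quartile of 0.335. Those of 8000 nt or more, a limit set after the data were seen, had a median of 0.62. Of them 12.7% were at least 2-fold higher, beside 3 of the 11 heavy chains.

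Longer transcripts had higher ratios at this step. Across the 43 genes the log2 ratio of INPUT to TOTAL and the log2 of the longest transcript had a Pearson r of 0.80 and a Spearman rho of 0.81, beside 0.61 and 0.64 across 14191 genes. The points share libraries and genes are not independent replicates, so these values describe the genes and carry no test. Without the heavy chains r was 0.74 over 32 genes, and over the 14 IFT genes it was 0.89. For IP against TOTAL r was 0.46 over 45 members and 0.44 over 14569 genes, and without the heavy chains it was 0.63 over 34. For IP against INPUT it was -0.21 over 43 genes and 0.11 over all, and for IP against BO -0.37 over 42 and -0.32 over all. Without the heavy chains it turned to 0.19 over 32 genes against INPUT, and was -0.13 over 31 against BO. Over the IFT genes it was 0.47 against INPUT (14 genes) and 0.035 against BO (13 genes). The length classes, set after the data were seen, rest on the longest annotated transcript, which need not be the one expressed. In these classes the 8 genes under 2000 nt had a median log2 ratio of -0.97 in IP against TOTAL, beside -1.17 for all such genes. For the 7 from 4000 to 8000 nt, all of them IFT or *Bbs1*, it was 1.94 beside 0.41, and 6 of 7 were at least 2-fold higher beside 27.9%. For the 11 heavy chains it was 1.48 beside 0.87 for genes of 8000 nt or more, with 7 of 11 at least 2-fold higher beside 44.9%. Against INPUT the heavy chains had a median of 0.39 beside 0.25, and the 19 genes from 2000 to 4000 nt 1.37 beside 0.20.

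**Figure D3:**
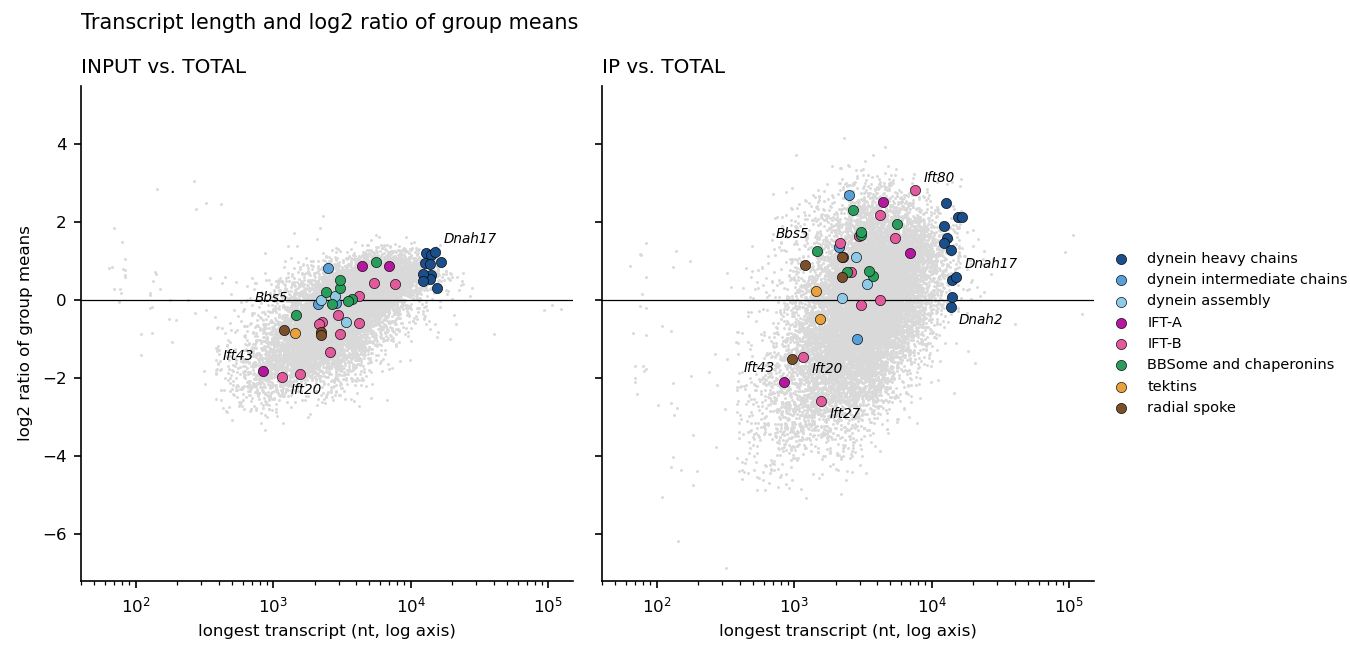
The longest GENCODE M21 transcript (x axis, nt, log axis) is plotted against the log2 ratio of group means (y axis) for INPUT against TOTAL (left) and IP against TOTAL (right), with all genes past the filter in grey and the cilium and flagellum genes coloured by group. On the left the short Ift43 and Ift20 lie near -2 and the heavy chains above 0 at the far right; on the right Ift80 is the highest member and the heavy chains spread from -0.18 for Dnah2 to 2.50 for Dnah6.

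BO was lower than INPUT for most of these genes. Of 42, 17 were at least 2-fold lower and none higher, beside 33.3% and 9.32% of 13578 genes, with medians of -0.90 and -0.55. Centring left 9 lower, beside 17.7% of genes, and equal sums gave 25, beside 42.2%. *Dnaic2* was the lowest at -2.55, and *Bbs5* the highest at 0.34. On the deposited scale *Bbs5*, *Bbs10*, *Bbs12* and *Dnah5* were above 0, and with equal sums *Bbs10*, *Bbs12* and *Dnah5* were below it, at -0.14, -0.08 and -0.10. After centring *Bbs7*, *Dnaaf2*, *Dnah7b*, *Ift57*, *Ift80* and *Ift172* turned above 0, and with equal upper quartiles the same genes except *Bbs7* did. All BO values include the library with 54.3% rRNA among repeat reads.

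As a share of the summed gene means, the 50 genes made up 0.118% of TOTAL, 0.136% of INPUT, 0.0690% of BO and 0.231% of IP. IFT-B gave 0.0456% of TOTAL, 0.0362% of INPUT, 0.0205% of BO and 0.0915% of IP. IFT-A gave 0.0176% of TOTAL and 0.0278% of INPUT and the heavy chains 0.0196% and 0.0350%, both with a larger share in INPUT, whereas the share of IFT-B was smaller there. In IP the heavy chains stood at 0.0391%, IFT-A at 0.0432% and the BBSome group at 0.0456%. The tektins made up 0.000566% of TOTAL and 0.000295% of IP.

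**Figure D4:**
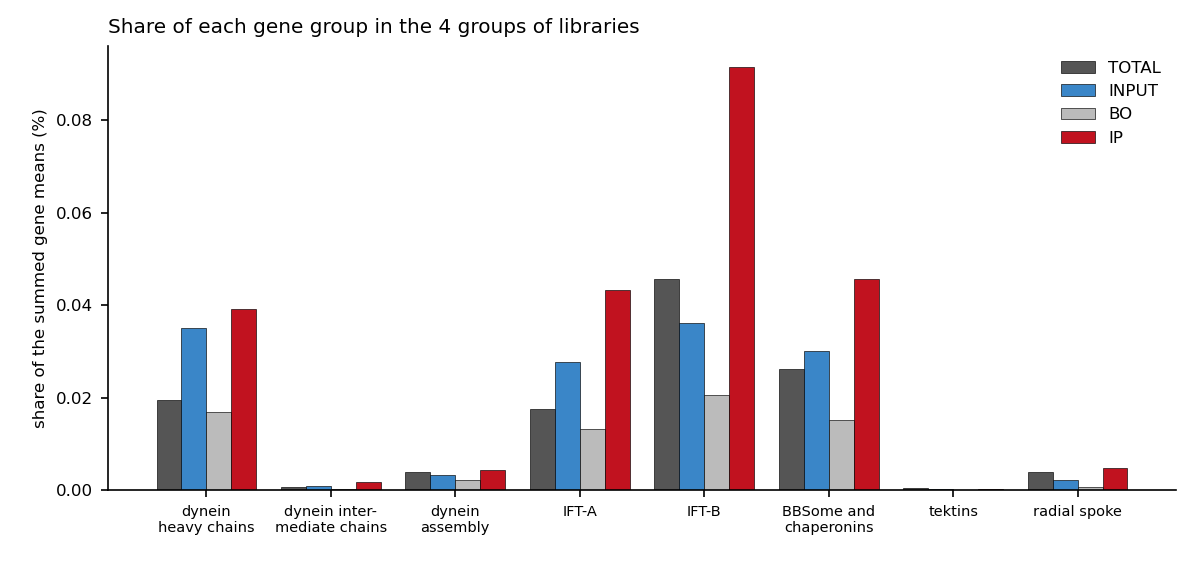
Bars give the summed group means of each gene group (x axis) as a percentage of the summed means of all 20981 genes (y axis) in TOTAL, INPUT, BO and IP. The tallest bar is IFT-B in IP at 0.0915%, BO is the shortest bar in 8 of 8 groups, and the heavy chains, intermediate chains, IFT-A and the BBSome group are taller in INPUT than in TOTAL.

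Other genes of the same structures were read from lists, whose counts here and in the next paragraph are on the deposited scale only. Other scalings changed the counts of the members, as given above. The list counts stand beside 20.4% of all genes at least 2-fold higher and 26.2% lower in IP than in TOTAL (median -0.03). Against BO they stand beside 43.9% higher and 11.2% lower (median 0.81). For transport and BBSome subunits under other names, 13 of 23 were at least 2-fold higher in IP than in TOTAL and none lower (median 1.14), from *Mkks*, a BBSome chaperonin, at -0.44 to *Ttc26*, the IFT56 subunit, at 2.92. Against BO 14 of 23 were at least 2-fold higher (median 1.49). For dynein docking and assembly genes under other names the counts were 11 of 18 against TOTAL (median 1.17, *Pih1d1* -0.81 to *Ccdc151* 2.34) and 17 of 17 against BO (median 2.10). Of the central pair genes 3 of 6 were at least 2-fold higher than in TOTAL (median 0.999, *Spef1* 0.40 to *Spag16* 1.71) and 5 of 6 than in BO (median 2.02). Of the nexin-dynein regulatory complex, which ties doublets together, 3 of 7 were higher and 1 lower than in TOTAL (median 0.55, *Gas8* -1.18 to *Iqcg* 2.17), and 7 of 7 were higher than in BO (median 2.08).

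Genes of sperm-specific tail parts lay on both sides of TOTAL. Of 14 listed genes of outer dense fibres and the fibrous sheath 13 were found and 8 passed the filter against TOTAL, 3 were at least 2-fold higher and 2 lower (median 0.51), from *Odf1*, the main outer dense fibre protein, at -3.22 to *Fsip1* at 2.01. *Odf3*, *Odf4*, *Ropn1*, *Tssk4* and *Gapdhs* did not pass, and all had lower means in IP than in TOTAL. Their TOTAL means were 4.435, 12.3, 15.1, 13.3 and 7.41, and their IP means 0, 6.64, 2.41, 3.17 and 1.36. The counts and median leave these genes out. The 2 lower genes, *Odf1* and *Akap4*, passed through TOTAL, with IP means of 1.63 and 7.00. All 6 that passed against BO were at least 2-fold higher (median 2.38). Among transcription factors of cilium and late meiotic genes, 8 of 9 were at least 2-fold higher in IP than in TOTAL (median 1.84), with *Foxj1* lowest at 0.49 and *Rfx2* highest at 2.88. Against BO 6 of 9 were at least 2-fold higher and 1 lower (median 1.37), the lower one being *Rfx3*, with means of 692 in TOTAL, 1025 in INPUT and 1506 in IP, but 2917 in BO on the scale of its own table. *Rfx2* gave 107 in TOTAL, 139 in INPUT, 118 in BO on its own scale and 797 in IP.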

How the data were processed

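The 12 RNA-seq libraries of *Mael*-/- testes, 3 each for TOTAL, INPUT, BO and IP, were grouped by their labels. Per the paper's methods and the submitters' processing notes, the authors aligned reads to mm10 with STAR 2.6.0c and normalized gene counts with DESeq2 1.24.0; the counter and annotation are not given in the sources used here. The deposited signal for genes is the mean of these normalized counts over a group, in 3 tables that set IP beside each other group. A further deposited signal, upper-quartile normalized counts per repeat subfamily and library, served for the rRNA shares. The tables also hold the authors' own fold changes, standard errors and p-values, which were not used.

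Each table has 802920 rows, of which 20981 are genes. 4 rows that name no gene (unmapped, ambiguous and the like) were left out; they held 38.6% of the summed means of genes and these rows together in TOTAL, 30.6% in INPUT, 37.9% in BO and 22.1% in IP. The depth behind a mean is unknown. Log2 ratios used a pseudocount of 1 and genes whose mean over the compared groups reached 10. Ratios of INPUT to TOTAL and BO to INPUT are differences of the IP ratios of separately normalized tables. Other settings tried were a pseudocount of 0.1 or of 10, all genes without a filter, a minimum mean of 100, centring on the median gene, equal sums, equal upper quartiles, a 1.5-fold limit, and another transcript length and motif. The gene tables give no value per library, so no library could be left out, and with the authors' standard errors and p-values set aside no test is given. Named were, per gene group, those with the highest TOTAL and IP mean, the extremes of each ratio, and all genes at least 2-fold higher in all 3 comparisons. Genes and lists were chosen with earlier results of these data known. Lengths and exon overlaps came from GENCODE M21 (GRCm38), matched for 50 of 50 members and 20701 genes, and promoters from RefSeq (GRCm38.p6). The list of 4 haemoglobin genes matched no row, and the spermatogonial markers had a median log2 ratio of -0.45 in IP against TOTAL. Python 3.11.15, pandas 2.3.3, numpy 2.4.6, scipy 1.17.1 and matplotlib 3.10.9 were used.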

Additional observations from a re-analysis of the deposited data

How the results depend on the processing

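Of 215 member ratios over the 5 comparisons, none changed sign under another pseudocount or filter, while 14 did after centring on the median gene, 14 with equal sums and 16 with equal upper quartiles, 27 ratios in all. None of these 27 was past 2-fold, and the largest was 0.81 (*Dnah11*, IP against BO). With the median gene, equal sums or equal upper quartiles as the reference, 170, 172 and all 215 of them moved by over 0.1 log2, a limit set by choice since no spread between libraries is known. The medians below are over members past the filter, and counts are of members at least 2-fold higher or lower. For IP against BO the median of 2.05 became 1.76 with a pseudocount of 10, 1.94 without a filter, 1.237 centred (25 higher), 1.76 with equal sums and 1.375 with equal upper quartiles. For IP against INPUT it was 0.977 with a pseudocount of 10, with 0 lower, 0.976 without a filter, 0.93 centred, with 2 lower, 0.55 with equal sums, with 14 higher and 5 lower, and 0.68 with equal upper quartiles, with 5 lower. A minimum mean of 100 left 0 lower and a limit of 1.5-fold gave 5. For IP against TOTAL it was 0.84 without a filter, with 8 lower, 1.29 at a mean of 100, with 2 lower, 0.59 with equal sums, with 15 higher, and 0.89 with equal upper quartiles. For INPUT against TOTAL it was -0.048 without a filter, with 9 lower, 0.25 centred, with 9 higher, and 0.31 with equal upper quartiles, with 10 higher, and a limit of 1.5-fold gave 12 higher and 11 lower. For BO against INPUT it was -0.74 with a pseudocount of 10, -0.70 at a mean of 100, with 8 lower, -0.35 centred, with 9 lower, -1.15 with equal sums and -0.64 with equal upper quartiles, and 1.5-fold gave 30 lower. With a pseudocount of 10, 2 genes were no longer at least 2-fold higher against BO (*Dnaaf2*, *Dnaic2*) and 1 against INPUT (*Tekt1*), and *Dnah10* against INPUT (-0.97) and *Rsph9* against TOTAL (-0.94) were no longer at least 2-fold lower. Of the 18 genes at least 2-fold higher in IP than in all 3 groups, 18 remained with either pseudocount, 16 at a mean of 100, 13 centred, 9 with equal upper quartiles and 8 with equal sums. The cause of these shifts was not tested beyond what each setting changes by construction. The r of length and IP against TOTAL was 0.63 without the heavy chains. X-box shares were 14.9% for the looser form and 38.3% for the shorter GTTGCC (beside 12.5% of all promoters), which was added after the data were seen, as was the longest protein coding transcript, with an r of 0.457 for IP and 0.80 for INPUT against TOTAL.

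No paired analysis was possible because the gene tables hold no value per library, and for the same reason no library was left out in turn. The depth behind each mean is unknown, so values near 10 and the BO means, which include the library with 54.3% rRNA among repeat reads, are the least certain.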
